A study of Homo sapiens with 10 samples.

Results

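The 9 genes described here encode the MHC class I display pathway of human cells: the heavy chains HLA-B, HLA-C, HLA-E and HLA-F, their shared light chain B2M, the peptide transporter subunits TAP1 and TAP2, the loading chaperone TAPBP and the class I transactivator NLRC5. They were taken by gene name from the deposited expression table, as 9 of its 20289 genes. Other class I heavy chain genes are outside this set, so sums over the set are not the class I total of a cell. All 9 passed the low-value filter of the test (at least 1 FPKM in at least 2 libraries), HLA-F through its CFPAC-1 libraries alone.

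The study asked what ferroptosis inducer treatment does to gene expression in pancreatic ductal adenocarcinoma lines. CFPAC-1, a line derived from a patient with cystic fibrosis, was grown for 24 h with 0.1% DMSO (2 libraries) or with 10 µM IKE (2 libraries). PANC-1, an epithelioid pancreatic carcinoma line, was grown for 24 h with 0.1% DMSO (2 libraries) or with 1 µM IKE (4 libraries). IKE is imidazole ketone erastin, which blocks the cystine importer system xc- and thereby lowers glutathione. Dead cells and debris were removed before RNA was taken in every group, so the IKE libraries describe survivors. The dose differed 10-fold between the lines, so a difference between lines in the IKE response is also a difference between doses. Each line stands for itself alone, since each genotype has 1 line. The labels call the replicates bioreplicates but do not describe what was repeated, so how much of the spread behind the p-values is technical is unknown.

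FPKM values summed to between 405937 and 472665 per library, and 11604 to 12248 genes reached 1 FPKM. The table gives no counts, so read depth is unknown and no counting error can be given. Of 8 epithelial markers, 7 stood at 1 FPKM or more in every library, and the blood-cell markers PTPRC, CD3E and MS4A1 were at or below 0.1 FPKM in all 10 libraries. CD14, LYZ and CD68, also on the blood-cell list, reached 1 FPKM in every CFPAC-1 library, as CD68 did in every PANC-1 library. RNA was measured in bulk, so fewer expressing cells and less RNA per cell cannot be told apart.

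Class I molecules carry short peptides from the cytosol to the cell surface, where CD8 T cells and natural killer cells read them. Proteasomes cut the peptides, the TAP1-TAP2 pair pumps them into the endoplasmic reticulum, and tapasin (TAPBP) holds an empty heavy chain paired with B2M beside the transporter until a peptide binds. Interferon raises most genes of this route together through STAT and IRF factors. NF-kB factors also act on class I promoters, and NLRC5 acts with RFX, CREB/ATF and NF-Y proteins on an SXY module there.

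The promoters of genes that moved together between the lines, and that of TAP2, which did not pass the test between them, are shown first because the later comparisons refer to them. They come from RefSeq (GRCh38.p14), which held windows for 7 of the 9 members (HLA-B, HLA-C, HLA-F, B2M, TAP1, TAP2 and TAPBP). Each sequence lies within the 250 bases before the RefSeq start, less any base inside an annotated exon of the gene, and the last is the stretch between the divergent genes TAP1 and PSMB9. Capitals mark the motifs searched, on both strands.
HLA-B (chr6:31357189-31357429, minus strand): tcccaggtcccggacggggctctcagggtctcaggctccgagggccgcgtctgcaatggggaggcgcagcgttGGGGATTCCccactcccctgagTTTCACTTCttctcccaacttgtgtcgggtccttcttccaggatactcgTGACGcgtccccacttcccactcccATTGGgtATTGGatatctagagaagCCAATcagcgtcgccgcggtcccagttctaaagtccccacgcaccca
HLA-C (chr6:31272131-31272342, minus strand): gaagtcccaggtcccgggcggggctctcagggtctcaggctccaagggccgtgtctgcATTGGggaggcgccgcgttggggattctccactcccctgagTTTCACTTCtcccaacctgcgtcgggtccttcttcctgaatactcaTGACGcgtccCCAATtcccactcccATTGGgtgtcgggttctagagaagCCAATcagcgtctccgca
B2M (chr15:44711267-44711486, plus strand): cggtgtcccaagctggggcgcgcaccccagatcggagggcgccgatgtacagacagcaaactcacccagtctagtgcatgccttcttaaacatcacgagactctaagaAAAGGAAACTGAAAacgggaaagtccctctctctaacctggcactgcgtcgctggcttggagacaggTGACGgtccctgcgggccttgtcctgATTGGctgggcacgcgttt
TAP2 (chr6:32838781-32838989, minus strand): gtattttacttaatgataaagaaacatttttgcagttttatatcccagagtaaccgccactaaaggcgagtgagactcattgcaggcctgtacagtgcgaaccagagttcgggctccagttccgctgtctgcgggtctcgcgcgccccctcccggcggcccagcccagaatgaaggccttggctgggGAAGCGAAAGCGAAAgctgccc
TAP1 to PSMB9 (chr6:32853979-32854147, plus strand): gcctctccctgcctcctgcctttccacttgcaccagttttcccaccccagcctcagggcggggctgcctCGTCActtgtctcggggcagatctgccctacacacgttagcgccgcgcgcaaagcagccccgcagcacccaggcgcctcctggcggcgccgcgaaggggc

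The motifs searched were AANNGAAA (an IRF core), GAANNGAAA (the same core after a G, so that each of its matches also holds the first), GGGNNTTCC (an NF-kB site), TGACG (the core of a CRE, as in the X2 box) and CCAAT (bound by NF-Y). Among all 35116 windows of the same length, 20.3% held the first, 6.56% the second, 5.78% the third and 21.2% the fourth, and 11240 windows held the fifth. HLA-B carries, in this order, an NF-kB match, the IRF core in reverse (TTTCACTTC), then the CRE core, the NF-Y motif in reverse at 2 places and the same motif forward. HLA-C has the same reversed IRF core, TGACG and CCAAT on either strand at 4 places, and its window has no match to GGGNNTTCC. In B2M the capitals are 2 overlapping IRF cores, TGACG and CCAAT in reverse. The stretch printed for TAP2 has 2 overlapping IRF cores, and the TAP1 to PSMB9 stretch has 1 reversed TGACG. The TAP2 window also holds 1 TGACG, in bases inside an annotated exon that are not printed. The HLA-F window, not printed here, held 1 reversed IRF core and CCAAT on either strand at 2 places. It had no TGACG and no match to the other motifs. The promoter windows of TAP1 and TAPBP lie within annotated exons and are not printed. TAPBP held 2 IRF cores and 1 match to GGGNNTTCC. Of the 2 TAP1 windows, 1 held 2 IRF cores and 1 reversed CCAAT, and the other had no match to any of the motifs. A match is a match of letters and no evidence of binding in these cells.

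With DMSO, 8 of the 9 genes were lower in PANC-1 than in CFPAC-1 at an adjusted p below 0.05 (limma on log2(FPKM + 1), Benjamini-Hochberg over 13077 genes, 2 libraries each). The background of this comparison is high: 78.7% of all genes tested passed, and 35.2% passed as lower in PANC-1. The median log2 difference (PANC-1 minus CFPAC-1) over the 9 was -2.02, against 0.12 over all genes tested. TAP2 alone did not pass. HLA-F entered the test through CFPAC-1 alone, so its direction was set by the filter, and 7 of the other 8 members were lower. Dividing each library by its median ratio moved the median of all genes from 0.12 to -0.02, and the 8 genes were called as lower in each of 20 alternative analyses, that one included.

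**Figure D1:**
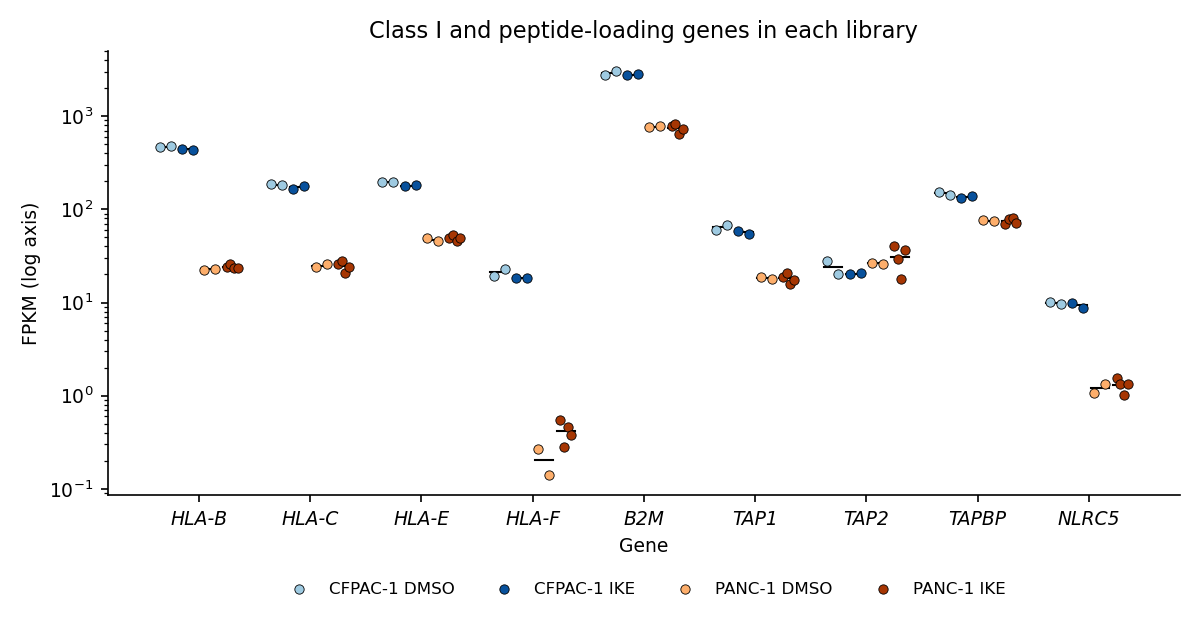
FPKM of each gene (log axis) in each of the 10 libraries, 1 point a library and a line at each group mean. PANC-1 points lie below CFPAC-1 points for every gene but TAP2, and the distance is widest for HLA-B and HLA-F.

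HLA-B encodes a classical heavy chain (ENSG00000234745, chr6:31269491-31357188, minus strand, GENCODE 29 on GRCh38). Its FPKM was 469.08 and 475.59 in the CFPAC-1 libraries with DMSO, and 447.41 and 436.97 with IKE. The PANC-1 libraries held 22.61 and 22.75 with DMSO, and 24.25, 26.09, 23.34 and 23.46 with IKE. The lines did not overlap, and the ratio of mean FPKM with DMSO was 20.8. The log2 difference was -4.32 (SE 0.07, 95% interval -4.47 to -4.18, limma adjusted p 5.48e-13). Of all genes tested, 1.29% had a more negative line difference.

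HLA-C, another classical heavy chain and a main ligand of killer-cell immunoglobulin-like receptors, lies at chr6:31268749-31272130 on the same strand (ENSG00000204525). CFPAC-1 libraries held 186.00 and 181.10 FPKM with DMSO and 166.98 and 180.25 with IKE. PANC-1 libraries held 23.91 and 25.92 with DMSO, and 25.70, 28.01, 20.77 and 24.31 with IKE. Again every PANC-1 value was below every CFPAC-1 value. The log2 difference between the lines was -2.83 (SE 0.11, limma adjusted p 6.52e-10). The annotated gene model of HLA-B runs over HLA-C, the genes are close paralogs, and the sources used here do not say how shared reads were assigned, so the split between them is uncertain. Class I heavy chains also differ between people, and the effect on read mapping of the alleles each line carries was not tested.

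HLA-E presents leader peptides of other class I chains to the NKG2A receptor of natural killer cells (ENSG00000204592, chr6:30489467-30494205, plus strand). It stood at 194.67 and 195.02 FPKM in CFPAC-1 with DMSO and at 178.82 and 180.77 with IKE. In PANC-1 it stood at 48.89 and 45.73 with DMSO, and at 49.11, 53.54, 46.08 and 49.55 with IKE. HLA-E was thus the heavy chain of this set with the highest level in PANC-1, while HLA-B was the highest in CFPAC-1. The log2 line difference was -2.02 (SE 0.07, limma adjusted p 3.2e-10).

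HLA-F is a non-classical heavy chain that can reach the surface without peptide (ENSG00000204642, chr6:29722775-29738528, plus strand). CFPAC-1 held 19.30 and 22.79 FPKM with DMSO and 18.14 and 18.41 with IKE. PANC-1 held 0.27 and 0.14 with DMSO, and 0.55, 0.28, 0.46 and 0.38 with IKE. All 6 PANC-1 libraries were below 1 FPKM, where FPKM rounded to 2 decimals is coarse. The ratio of mean FPKM with DMSO was 103. The log2 difference of -4.19 (SE 0.12, limma adjusted p 6.07e-11) understates a change that reaches such low values, because 1 is added to each FPKM before the logarithm, and with 0.1 added in its place the difference was -6.14.

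The heavy chains therefore differed between the lines in their proportions as well as their levels. HLA-B exceeded HLA-C by 2.42 to 2.68 times in FPKM in the 4 CFPAC-1 libraries and stood at 0.878 to 1.12 times HLA-C in the 6 PANC-1 libraries. Relative to HLA-E, HLA-B was at 2.41 to 2.5 times in CFPAC-1 and 0.462 to 0.507 times in PANC-1. Of the FPKM summed over these 4 heavy chains, HLA-B made up 53.5 to 55.1% in CFPAC-1 and 23.6 to 25.7% in PANC-1. HLA-E made up at most 22.4% in CFPAC-1 and 48.4 to 51.1% in PANC-1. HLA-C held 20.6 to 22.1% in CFPAC-1 and 22.9 to 27.4% in PANC-1. Neither treatment moved any of these ratios across the gap between the lines.

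**Figure D2:**
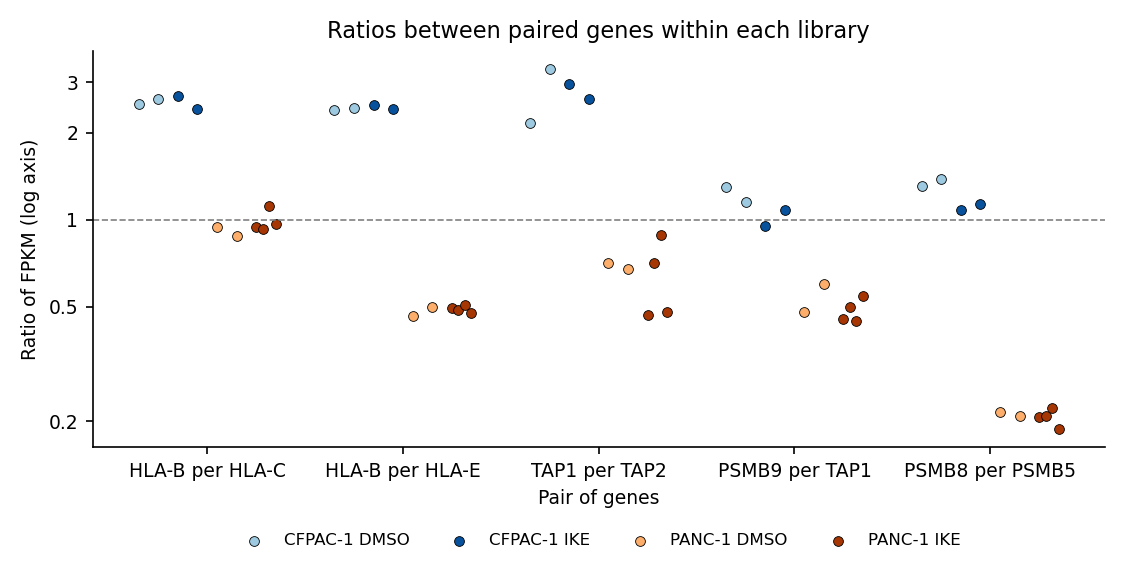
Ratio of FPKM between pairs of genes (log axis), 1 point a library, with a dashed line at 1. HLA-B per HLA-C and TAP1 per TAP2 lie above 2 in CFPAC-1 and at or below 1.12 in PANC-1, and PSMB8 per PSMB5 falls from 1.08 or more to 0.222 or less.

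B2M, the light chain that every class I heavy chain needs to fold, was the most abundant member in each group (ENSG00000166710, chr15:44711487-44718877, plus strand). CFPAC-1 held 2752.05 and 3060.55 FPKM with DMSO and 2774.01 and 2833.74 with IKE. PANC-1 held 761.50 and 778.39 with DMSO, and 794.80, 816.55, 650.11 and 725.34 with IKE. The lines were far apart, at a ratio of mean FPKM of 3.77 and a log2 difference of -1.91 (SE 0.10, limma adjusted p 1.11e-08). Even in PANC-1 with DMSO, B2M was above 99.8% of the genes in the table.

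TAP1 and TAP2 form the peptide transporter as a pair, but TAP1 passed the test between the lines and TAP2 did not. TAP1 (ENSG00000168394, chr6:32845209-32853978, minus strand) stood at 60.79 and 68.39 FPKM in CFPAC-1 with DMSO and at 59.07 and 54.61 with IKE. In PANC-1 it stood at 19.01 and 17.70 with DMSO, and at 18.84, 20.58, 15.97 and 17.43 with IKE. The groups of the 2 lines did not overlap, and the log2 difference was -1.76 (SE 0.11, limma adjusted p 3.5e-08).

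TAP2 (ENSG00000204267, chr6:32821833-32838780, minus strand) held 28.19 and 20.45 FPKM in CFPAC-1 with DMSO and 20.05 and 20.88 with IKE. In PANC-1 it held 26.76 and 26.15 with DMSO, and 40.19, 29.02, 18.06 and 36.45 with IKE. The lines overlapped, and TAP2 spread more between replicates than any other member on the log scale of the test. Its log2 line difference was 0.13 (SE 0.28, 95% interval -0.49 to 0.75, limma adjusted p 0.674), an interval that does not reach the -1.76 of TAP1, and its sign flipped to -0.01 after median-ratio scaling. TAP1 per TAP2 was 2.16 to 3.34 in CFPAC-1 and 0.469 to 0.884 in PANC-1. A readthrough gene, AL669918.1, is annotated on the same strand over TAP2 and HLA-DOB, so reads of TAP2 may have been divided with it.

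TAPBP encodes tapasin (ENSG00000231925, chr6:33299694-33314387, minus strand). It had 154.30 and 142.82 FPKM in CFPAC-1 with DMSO and 131.98 and 139.82 with IKE. It had 77.22 and 74.25 in PANC-1 with DMSO, and 69.27, 78.88, 80.72 and 71.49 with IKE. The line difference was the smallest of the 8 that passed, at -0.96 (SE 0.08, limma adjusted p 6.3e-07), and TAPBP was second to B2M among the members in PANC-1.

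NLRC5, which binds no DNA itself and acts on the SXY module of class I promoters, lies at chr16:56989485-57083531 (ENSG00000140853, plus strand). CFPAC-1 held 10.19 and 9.62 FPKM with DMSO and 9.78 and 8.83 with IKE. PANC-1 held 1.07 and 1.32 with DMSO, and 1.53, 1.33, 1.02 and 1.35 with IKE. Every PANC-1 library was thus close to 1 FPKM. The log2 difference was -2.31 (SE 0.12, limma adjusted p 9.61e-09), and the ratio of mean FPKM was 8.29.

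In order of mean FPKM in CFPAC-1 with DMSO, the members ran B2M, HLA-B, HLA-E, HLA-C, TAPBP, TAP1, TAP2, HLA-F and NLRC5. Only TAP2 and HLA-F overlapped among neighbours in that order. With DMSO in PANC-1 the order was B2M, TAPBP, HLA-E, TAP2, HLA-C, HLA-B, TAP1, NLRC5 and HLA-F, with no overlap between neighbours over 2 libraries. With IKE in PANC-1 the order of means was the same, but TAP2 overlapped HLA-C, and HLA-C overlapped HLA-B, over 4 libraries.

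The line difference reached the proteasome subunits that supply class I peptides. All 5 genes of the immunoproteasome and its PA28 activator were lower in PANC-1, with a median log2 difference of -2.27. PSMB9, whose start faces that of TAP1 across the stretch printed above, stood at 78.92 and 78.54 FPKM in CFPAC-1 with DMSO and at 9.10 and 10.60 in PANC-1 (log2 difference -2.88, SE 0.13, limma adjusted p 2.51e-09). PSMB8, between TAP2 and TAP1 on the chromosome, differed by -2.61 (SE 0.10). PSMB10, on another chromosome, differed by -2.26 (SE 0.13), PSME1 by -2.27 (SE 0.08) and PSME2 by -1.21 (SE 0.07). Their constitutive counterparts did not go with them: PSMB6 was 0.86 (SE 0.07) and PSMB7 1.09 (SE 0.07) higher in PANC-1, and PSMB5 did not pass at 0.00 (SE 0.10, adjusted p 0.978). PSMB8 per PSMB5, the subunits that replace each other in the 2 kinds of proteasome, was 1.08 to 1.39 in CFPAC-1 and 0.188 to 0.222 in PANC-1. PSMB9 overlaps both TAP1 and PSMB8 on the opposite strand, and the sources used here do not say whether counting used the strand.

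Trimming enzymes and folding partners of the endoplasmic reticulum had no common direction: of 11 genes, 5 were lower in PANC-1, 4 were higher and 2 did not pass, with a median of 0.06. TAPBPL, a tapasin relative that edits peptides, was lower by a log2 value of -1.25 (SE 0.14, limma adjusted p 7.56e-06), and the trimming peptidase ERAP1 by -1.17 (SE 0.16, limma adjusted p 3.34e-05). PDIA3, the oxidoreductase paired with tapasin, differed by -0.66 (SE 0.06). BCAP31, an export receptor, was higher by 0.90 (SE 0.10). The chaperone CALR did not pass, at 0.08 (SE 0.07, adjusted p 0.296).

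Among 15 transcription factors known from class I promoters, 7 were lower in PANC-1, 5 were higher and 3 did not pass (median -0.13). Among the lower ones were, on the interferon side, IRF9 (-3.31, SE 0.21), IRF1 (-2.15, SE 0.36), STAT2 (-1.87, SE 0.09) and IRF2 (-0.65, SE 0.09), together with NFKB1 (-0.36, SE 0.12). IRF1 fell from 137.32 and 137.48 FPKM in CFPAC-1 to 42.37 and 21.49 in PANC-1, which is also a wide spread between the PANC-1 libraries. Of the factors that sit on the SXY module, RFX5 (0.50, SE 0.10), NFYB (0.97, SE 0.15), NFYC (0.85, SE 0.09) and ATF1 (0.60, SE 0.11) were higher in PANC-1, CREB1 (-0.67, SE 0.14) was lower, and RFXAP, RFXANK and NFYA did not pass. RELA was also higher (0.59, SE 0.08). Every factor named in this paragraph as higher or lower had a limma adjusted p below 0.05.

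Interferon response genes were lower in PANC-1 for 15 of 16 tested. IFI27, GBP1 and GBP2 were below 1 FPKM in every PANC-1 library and entered the test through CFPAC-1 alone, and 12 of the other 13 were lower. IFI27 had 548.03 and 635.20 FPKM in CFPAC-1 with DMSO and 0.90 and 0.15 in PANC-1. The antiviral GTPase MX1 had 199.32 and 201.54 against 2.48 and 1.80. IFIT2 went the other way, at 27.16 and 28.65 in CFPAC-1 and 39.42 and 39.34 in PANC-1 (log2 difference 0.48, SE 0.10, limma adjusted p 0.00115). Of 8 tested genes for interferon receptors, their kinases and a suppressor, 5 were lower, among them the suppressor SOCS3 (-0.32, SE 0.10), 2 were higher (the kinases TYK2 by 1.00 and JAK1 by 0.36) and IFNGR2 did not pass. IFNAR1 differed by -1.01 (SE 0.11) and IFNGR1 by -0.25 (SE 0.08).

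Of 10 tested genes of the MHC class II route, which displays peptides from endosomes, 9 were below 1 FPKM in every PANC-1 library. These 9 entered the test through CFPAC-1 alone, which set their direction, and the other, CD74, was also lower in PANC-1. HLA-DRA stood at 135.75 and 149.24 FPKM in CFPAC-1 with DMSO and at 0.19 and 0.04 in PANC-1. CD74, the invariant chain, stood at 305.87 and 281.70 against 1.14 and 1.28, and CIITA, the class II counterpart of NLRC5, at 9.37 and 14.54 against 0.06 and 0.09. Among class I-like and natural killer ligand genes, 9 of 12 tested had 1 FPKM or more in libraries of both lines, and of these 5 were lower, 2 were higher and 2 did not pass. MICB, a ligand of NKG2D, was at 2.43 and 1.98 FPKM in CFPAC-1 and at 29.78 and 28.90 in PANC-1 (log2 difference 3.25, SE 0.10, limma adjusted p 8.99e-11). FCGRT, a class I-like chain that also pairs with B2M, was lower too, at -2.45 (SE 0.19, limma adjusted p 2.85e-07).

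Of 14 genes known to act on class I trafficking, turnover or transcription and at 1 FPKM or more in libraries of both lines, 6 were lower in PANC-1 and 8 were higher. The largest of these differences were those of MAL2 (-5.91, SE 0.09) and MARCHF9 (-3.23, SE 0.12), both lower in PANC-1. SUZ12, a subunit of Polycomb repressive complex 2, was at 14.45 and 14.28 FPKM in CFPAC-1 and at 39.63 and 38.31 in PANC-1 (1.38, SE 0.11), and its partners EZH2 (0.40, SE 0.09) and EED (0.49, SE 0.10) were higher too. SUSD6, a membrane protein of a class I degradation complex, was lower (-2.20, SE 0.10), and so was NBR1, an autophagy receptor for class I in pancreatic cancer cells (-1.91, SE 0.09). Of 6 tested checkpoint ligand genes, CD274 and LGALS9 entered the test through CFPAC-1 alone, and the other 4 were lower, among them CD47 (-2.26, SE 0.08). Each value in parentheses in this paragraph had a limma adjusted p below 0.05.

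**Figure D3:**
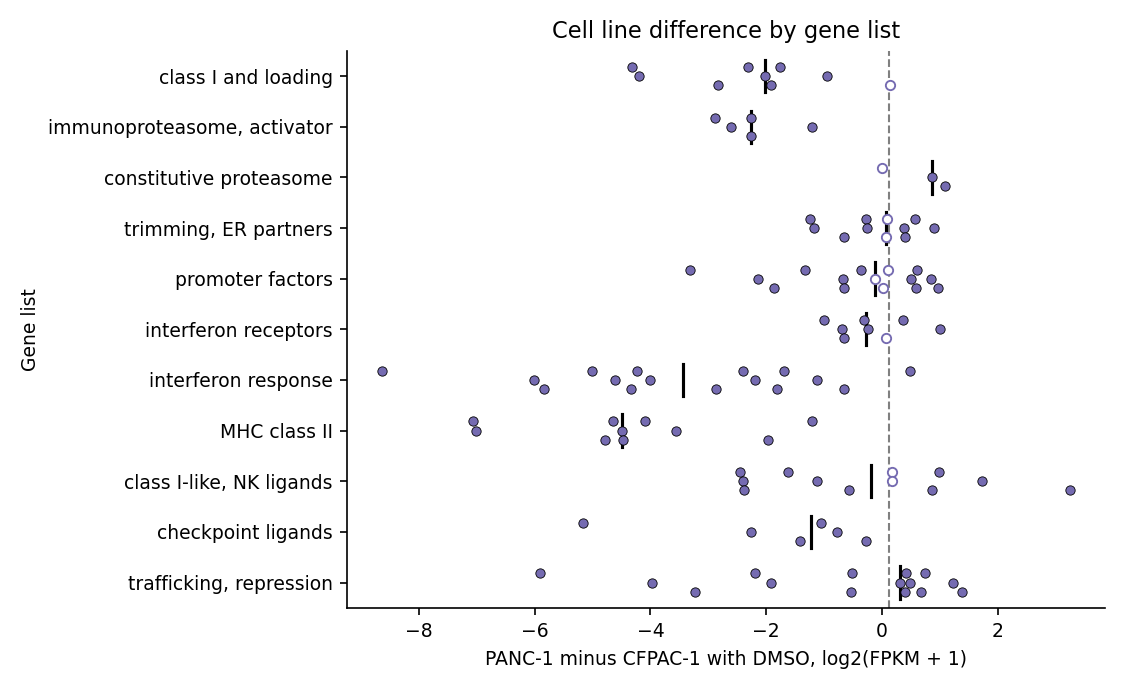
Log2 difference between the lines with DMSO for each tested gene of each list (filled: adjusted p below 0.05, open: not), with a bar at the list median and a dashed line at the median of all genes tested, 0.12. The class I set, the immunoproteasome, the interferon response and MHC class II lie mostly below -1, while promoter factors and endoplasmic reticulum partners lie on both sides of 0. Of the class II genes, 9 were tested through CFPAC-1 alone, and SOCS3 is plotted with the interferon receptors and kinases.

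IKE at 10 µM left none of the 9 members past the threshold in CFPAC-1. At an unadjusted p below 0.05 the count was also 0 (limma). Of all genes tested, 1.32% were called and 13.6% had an unadjusted p below 0.05. The 9 log2 differences (IKE minus DMSO) were all negative, from -0.22 for TAP2 to -0.05 for B2M (0.13 for B2M with quantile normalization), with a median of -0.12 against 0.00 over all genes. For 6 members (HLA-B, HLA-C, HLA-E, HLA-F, TAP1 and TAPBP) both IKE libraries lay below both DMSO libraries, a pattern that 23.9% of all genes show, and for none did both lie above, a pattern that 23.0% of all genes show.

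The estimates in CFPAC-1 were -0.10 for HLA-B (95% interval -0.24 to 0.05), -0.08 for HLA-C (-0.33 to 0.17), -0.12 for HLA-E (-0.28 to 0.05) and -0.19 for HLA-F (-0.46 to 0.08). For B2M the interval was -0.28 to 0.18, for TAP1 -0.42 to 0.06, for TAPBP -0.31 to 0.06 and for NLRC5 -0.36 to 0.19. TAP2 had the widest, from -0.84 to 0.40. Adjusted p in limma ran from 0.537 for TAP1 to 0.904 for B2M. Apart from TAP2, a fall of 0.5 on the log2 scale lies outside every one of these intervals.

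In PANC-1, 1 µM IKE also left 0 of 9 members called, with 0 at an unadjusted p below 0.05 (limma), against 2.38% of all genes called and 17.6% at that unadjusted p. Of the 9 differences 5 were positive and 4 negative, with a median of 0.06 against -0.01 over all genes. All 4 IKE libraries lay above both DMSO libraries for HLA-B and HLA-F, a pattern shown by 12.3% of all genes, and all 4 lay below for no member, which 13.6% of all genes show. The log2 difference was 0.09 for HLA-B (95% interval -0.03 to 0.22, adjusted p 0.442), 0.23 for HLA-F (0.00 to 0.47, adjusted p 0.291) and 0.16 for TAP2 (-0.38 to 0.70, adjusted p 0.805). For HLA-F, the ratio of mean FPKM was 2.04, and with 0.1 added in place of 1 the log2 difference was 0.77 (limma adjusted p 0.122). It was -0.02 for HLA-C, 0.06 for HLA-E, -0.05 for B2M, -0.02 for TAP1, -0.01 for TAPBP and 0.07 for NLRC5.

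The 4 PANC-1 IKE libraries were not alike. Replicate 3 was the lowest of the 4 for 7 of the 9 members, all but HLA-F and TAPBP, and replicate 2 was the highest for 5. The same counts were not taken over all genes, so they cannot be called particular to the members. FPKM summed to 472665 in replicate 2, against 443772 to 449099 in the other 3. In replicate 3, 13 mitochondrial genes made up 5.27% of summed FPKM, against 3.13 to 3.76% in the other 3. Without replicate 3, 8 of the 9 differences were positive and none was called, with HLA-C, B2M and TAP1 turning from negative to positive.

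**Figure D4:**
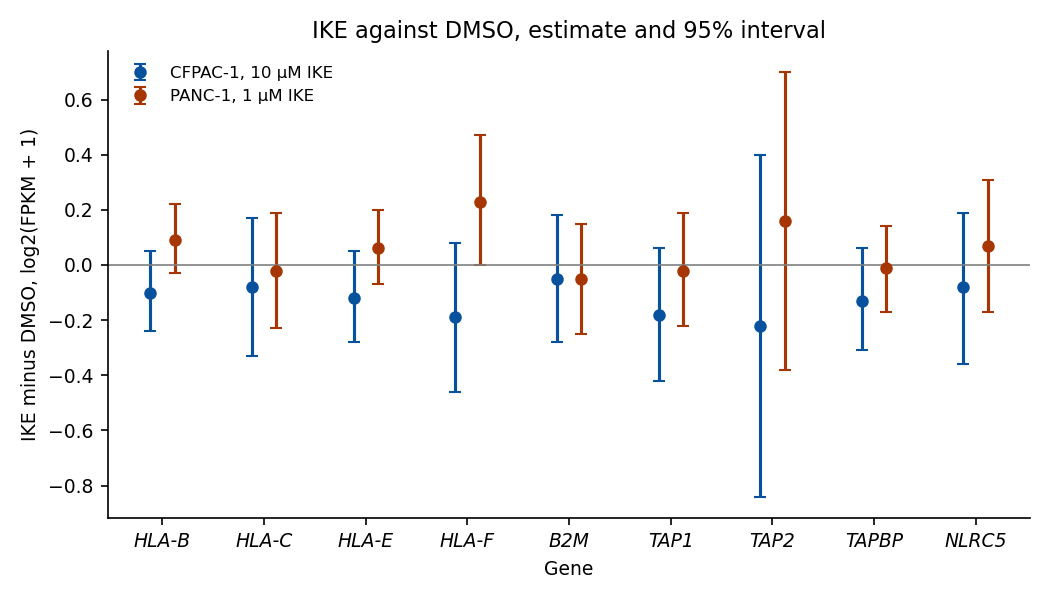
Log2 difference between IKE and DMSO for each gene in CFPAC-1 (10 µM) and PANC-1 (1 µM), with bars for the 95% interval of the limma fit. All 9 CFPAC-1 estimates lie below 0 (B2M turns to 0.13 with quantile normalization), the PANC-1 estimates lie on both sides, and TAP2 has the widest intervals.

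The test of the difference between the lines' responses called 0 of 9 members (limma, background 0.336% of all genes), with 1 at an unadjusted p below 0.05, where 12.3% of all genes lay. That gene was HLA-F, at 0.42 (95% interval 0.06 to 0.78, adjusted p 0.327), and its PANC-1 values are all below 1 FPKM. Its value was 0.97 with 0.1 added in place of 1 (limma adjusted p 0.351). The difference in response was 0.19 for HLA-B (0.00 to 0.38, adjusted p 0.414) and 0.18 for HLA-E (-0.03 to 0.39, adjusted p 0.481). It was 0.00 for B2M, with an interval from -0.30 to 0.30.

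Some genes around the 9 did pass with IKE. In CFPAC-1, PSME2, the PA28 beta subunit of the proteasome activator, fell from 215.53 and 226.61 FPKM to 144.53 and 141.28 (log2 difference -0.63, SE 0.07, limma adjusted p 0.00069). It was called in each of 21 alternative analyses. All 5 immunoproteasome and activator genes had negative estimates with an unadjusted p below 0.05 there (13.6% of all genes had such a p in either direction), but PSME2 was the only one called, and between 1 and 3 of the 5 were called across the alternatives. PSMB9 stood at 78.92 and 78.54 FPKM with DMSO and at 56.25 and 59.14 with IKE (-0.44, SE 0.13, adjusted p 0.156), and PSMB10 at 34.09 and 34.96 against 26.22 and 24.68 (-0.43, SE 0.13, adjusted p 0.162). PSMB8 and PSME1 had -0.27 (SE 0.10, adjusted p 0.255) and -0.21 (SE 0.08, adjusted p 0.277). The 3 constitutive subunits had estimates from -0.16 to 0.07, and none was called.

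Among interferon response genes in CFPAC-1, 15 of 16 estimates were negative (median -0.20) and 1 was called, the GTPase gene GBP1. It went from 26.62 and 24.58 FPKM to 17.89 and 14.92 (-0.62, SE 0.12, limma adjusted p 0.0262), and 6 of 21 alternatives lost the call, the replicate block among them (adjusted p 0.0703). MHC class II genes had 9 of 10 negative estimates (median -0.31). Of these, 7 had an unadjusted limma p below 0.05, as 13.6% of all genes had in either direction, and 1 was called. That one was HLA-DOB, which encodes a chain of HLA-DO and lies beside TAP2. It stood at 3.31 and 3.31 FPKM with DMSO and 2.15 and 1.55 with IKE (-0.60, SE 0.13, limma adjusted p 0.0477), and 13 of 20 alternatives lost the call. IRF1 stood at 137.32 and 137.48 FPKM with DMSO and 116.59 and 100.15 with IKE (-0.34, SE 0.36, adjusted p 0.76). None of the 15 promoter factors, 8 interferon receptor, kinase and suppressor genes, 11 folding partners or 15 trafficking and repression genes was called in CFPAC-1 (limma), with unadjusted p below 0.05 for 2, 2, 3 and 2 of them.

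In PANC-1, ULBP1, a stress-induced ligand of the NKG2D receptor, rose from 1.09 and 0.94 FPKM to 2.84, 2.46, 2.52 and 2.72 (log2 difference 0.85, SE 0.09, limma adjusted p 0.00126). Every IKE library lay above both DMSO libraries, a pattern that 12.3% of all genes show. ULBP1 was below 1 FPKM in every CFPAC-1 library and in PANC-1 DMSO replicate 2, so it needed the PANC-1 IKE libraries to pass the filter. The call held in each of 20 alternatives, the one with no low-value filter included, and the filter at 5 FPKM left the gene untested. In CFPAC-1 the same gene stood at 0.00 and 0.03 with DMSO and at 0.51 and 0.32 with IKE (0.48, SE 0.11, adjusted p 0.0593). The difference between the 2 responses was not called (0.37, adjusted p 0.318). CALR, the lectin chaperone that joins tapasin in the loading complex, rose in PANC-1 from 391.68 and 389.96 to 463.44, 509.84, 462.23 and 462.01 (0.28, SE 0.06, limma adjusted p 0.0297), a call that 14 of 21 alternatives lost. RFX5, a DNA-binding subunit of the SXY complex, fell from 21.71 and 23.33 to 15.48, 18.29, 17.83 and 16.27 (-0.39, SE 0.09, limma adjusted p 0.0484), a call that 17 of 21 alternatives lost. In CFPAC-1, RFX5 had nearly the same estimate, -0.38 (SE 0.10, adjusted p 0.114). None of the 5 immunoproteasome genes, 16 interferon response genes or 10 class II genes was called in PANC-1 (limma). Unadjusted p was below 0.05 for 0, 4 and 0 of them, and for 17.6% of all genes.

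**Figure D5:**
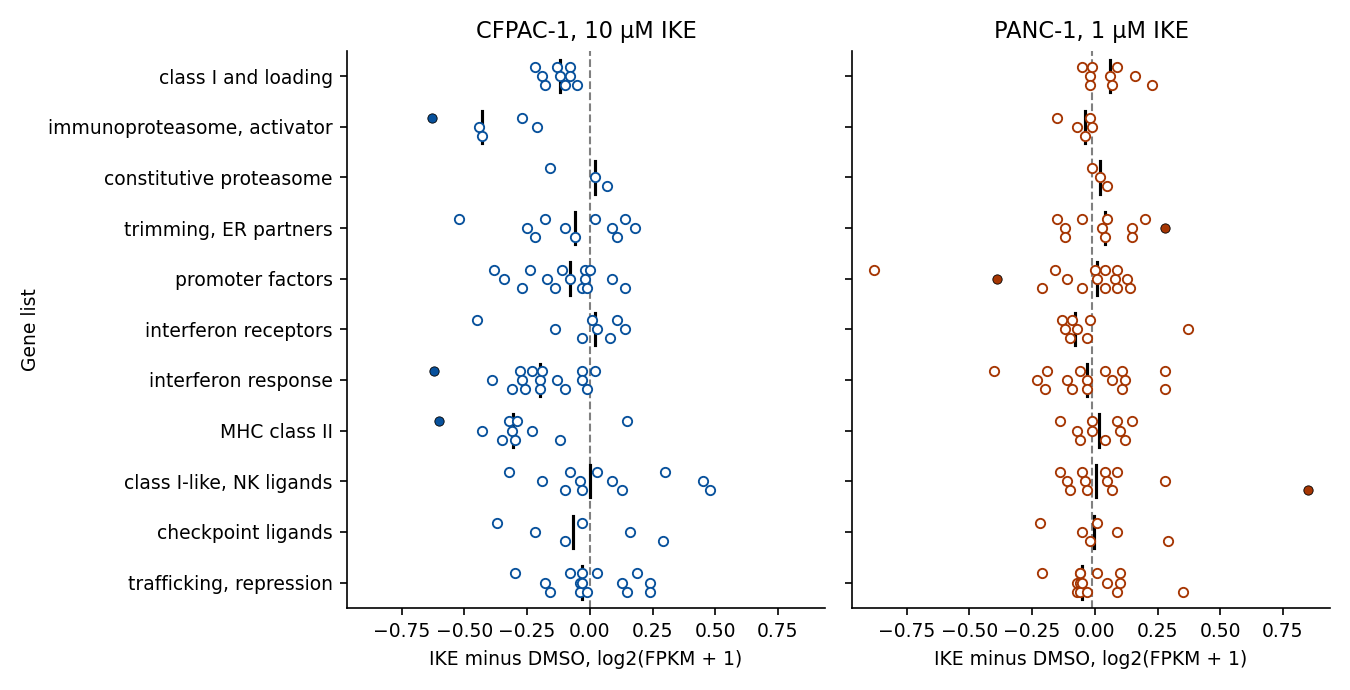
Log2 difference between IKE and DMSO for each tested gene of each list, CFPAC-1 on the left and PANC-1 on the right (filled: adjusted p below 0.05, open: not), with a bar at each list median and a dashed line at the median of all genes. PSME2, GBP1 and HLA-DOB are the filled points in CFPAC-1, and CALR, RFX5 and ULBP1 those in PANC-1.

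Within the lines, members varied together only in part. After each line's mean was subtracted, 29 of the 36 pairs of members had a Pearson r above 0 over the 10 libraries, with a median of 0.42. The highest were 0.85 for HLA-E with HLA-B and 0.84 for B2M with HLA-C, and the lowest was -0.43 for NLRC5 with TAPBP. The points of each pair share libraries and their scaling, and they still hold any shift between DMSO and IKE. The same share was not computed over all pairs of genes, so the count cannot be called particular to the members. When the line difference was kept, 22.4% of all genes had r of at least 0.95 with the mean of the members. Other genes near that mean were sought only where every group mean of log2(FPKM + 1) was at least 1. The 5 nearest after subtraction of the line means were B4GALT3 (r 0.96), IER2 (0.95), FUCA2 (0.94), PDIA6 (0.93) and IGFBP6 (0.93), over 10 libraries. IGFBP6 also shared the line pattern, with 51.55 and 53.15 FPKM in CFPAC-1 with DMSO against 2.23 and 2.22 in PANC-1, and IER2 had the opposite one, with 14.34 and 13.83 against 18.84 and 18.26.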

How the data were processed

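Total RNA of the 10 libraries was depleted of rRNA and made into strand-keeping libraries, per the labels' protocols. FPKM values, rounded to 2 decimals, were computed and deposited by the authors. The submitters' processing notes name StringTie 1.3.4 and HISAT2 2.1.0, then Bowtie2 2.2.8, fastp 0.18.0 and, with no version, DESeq2, on GRCh38. The sources used here do not give their roles, the annotation or the use of strand. A further 9 columns of the table are empty and were not used. Groups follow the labels.

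A gene entered the fit if 2 or more libraries reached 1 FPKM. The 13077 such genes were modelled on log2(FPKM + 1) with limma 3.58.1 (R 4.3.3), with an intensity trend and a mean for each of the 4 groups (6 residual and 5.1 prior degrees of freedom). Tests are two-sided with Benjamini-Hochberg adjustment over all genes and a threshold of 0.05. A fold on this scale understates changes of low genes. Depth is unknown. Alternatives changed the scaling, filter, pseudocount, variance prior, design and libraries. Named genes are the 9 members, genes of fixed lists and, among genes past the level cut given with them, the 5 nearest the members' mean. The members, lists and tests were chosen with earlier results of these data known, and the alternatives for genes outside the 9 and the motifs were added after seeing the data.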

Additional observations from a re-analysis of the deposited data

Results flagged for a closer look

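PSME2, the PA28 beta gene of the proteasome activator, differed between the lines in its IKE response by 0.59 on the log2 scale (SE 0.09, limma adjusted p 0.0215). IKE minus DMSO was -0.63 in CFPAC-1 at 10 µM and -0.04 in PANC-1 at 1 µM, where the libraries held 96.53 and 93.76 FPKM with DMSO and 90.86, 100.05, 92.35 and 87.78 with IKE. Line and dose cannot be told apart. In 9 of 20 alternatives the call was lost, with adjusted p over all 20 from 0.0139 to 0.139. These 9 include leaving out any 1 of the 6 libraries other than the PANC-1 IKE libraries, and without CFPAC-1 DMSO replicate 2 the value was 0.55 (adjusted p 0.139).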

How the results depend on the processing

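The count of called members was 8 for the line difference and 0 for both IKE comparisons and their difference under each alternative that was run. A separate fit per line gives no value for the comparisons between lines, HLA-F did not pass the PANC-1 fit alone, and the count tools were not run because the table holds no counts. Over all genes, calls ran from 80 to 262 in CFPAC-1 (173 as reported), from 42 to 504 in PANC-1 (311, of which 158 higher and 153 lower, against 120 higher and 254 lower with equal totals), from 13 to 69 for the difference (44) and from 8528 to 11320 between lines (10286). The lowest PANC-1 counts came without DMSO replicate 1 (42) or 2 (75), and the highest without IKE replicate 2 (504).

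Same-numbered DMSO and IKE libraries deviated from their group means with an r of -0.001 in CFPAC-1, and of 0.118 and -0.027 in PANC-1. With 2 libraries in each CFPAC-1 group the deviations mirror each other, so the r there is 1 value. Whether same-numbered libraries were paired is not given by the labels, and these r cannot decide it. With the replicate block, 119 genes were called in CFPAC-1 and 149 in PANC-1, and the members called were 0, 0, 8 and 0 as before. The replicate block turned the PANC-1 IKE difference to 0.104 for HLA-C, 0.065 for B2M and 0.097 for TAP1, and PANC-1 IKE replicates 1 and 2 alone gave the same 0.104, 0.065 and 0.097.

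Other turned signs were all of uncalled values. PANC-1 IKE replicates 3 and 4 alone gave -0.039 for TAP2, 0.005 for TAPBP and -0.008 for NLRC5, and differences of response of -0.061 for HLA-C and -0.115 for B2M. Quantile normalization gave 0.131 for B2M in CFPAC-1 and -0.253 for its difference of response, which was -0.026 with equal totals. Median-ratio scaling gave -0.012 for TAP2 between the lines. Leaving out 1 library at a time gave ranges of -0.126 to 0.027 for B2M and -0.444 to 0.001 for TAP2 in CFPAC-1. In PANC-1 they were -0.08 to 0.058 for HLA-C, -0.095 to 0.015 for B2M, -0.074 to 0.042 for TAP1, -0.05 to 0.022 for TAPBP and -0.013 to 0.152 for NLRC5. The range was -0.088 to 0.356 for TAP2 between the lines and -0.077 to 0.077 for the response difference of B2M. The cause of these turns was not tested. Depth is unknown, so small changes of HLA-F and NLRC5 in PANC-1 cannot be set against counting error.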
